A study of Taeniopygia guttata with 2 samples.

Results

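The potassium channel genes of Area X, the song nucleus of the zebra finch basal ganglia, were taken as every gene column of the combined nucleus table whose symbol starts with KCN, further letters and a digit. This gave 77 genes among 17430. They were divided by symbol into 25 voltage-gated pore genes, 9 modulatory voltage-gated subunits, 12 accessory subunits, 13 inward rectifiers, 12 tandem-pore leak channels and 6 pores gated by calcium or sodium. The label fits most of them, but the accessory genes, among them the KCNIP and KCNAB genes, encode partners of pores and no pore. Of the 77 genes, 60 had at least 200 unique molecular identifiers (UMIs) over all nuclei, 14 had fewer but at least 1, and KCNA7, KCNE2 and KCNJ1 had none.

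Potassium channels let potassium leave a cell and so set its resting potential, the shape of its spikes and how readily it fires. In striatal medium spiny neurons (MSNs), inward rectifiers and leak channels are known to hold the cell at a negative resting potential, and A-type and slowly inactivating voltage-gated channels delay the first spike. Fast-spiking interneurons are known for KCNC channels, which repolarise spikes quickly, and astrocytes for KCNJ10, which takes up potassium.

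Nuclei came from adult male zebra finches, 160 to 185 days post hatch by the sample labels, although the methods of the study give other ages. The birds had received an AAV1 in Area X with a Cre switch under the CAG promoter. It carried hairpins against FoxP2 (shFoxP2) in one library and a scrambled hairpin (shScr) in the other, and each library pooled tissue of 2 birds. AAV does not reach every cell, and nuclei with and without the virus were not told apart.

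The library labelled shFoxP2 held 12956 nuclei with a median of 2871 UMIs, and the shScr library 14289 nuclei with a median of 2300 UMIs. FOXP2 itself had 5.85 UMIs per 10000 in MSNs of the library labelled shFoxP2 and 4.75 in MSNs of the shScr library. FOXP2 RNA counted in nuclei was therefore not lower in the library labelled as the knockdown. These counts include introns and cover MSNs with and without the virus. The study measured its knockdown as FoxP2 protein, in infected cells and in cell lysates, so the measures are unlike and these levels cannot decide on the knockdown. Dopamine receptor genes in the same nuclei gave DRD1 levels of 0.986 (shFoxP2) and 1.45 (shScr), DRD5 levels of 1.21 (shFoxP2) and 1.68 (shScr) and DRD2 levels of 2.11 (shFoxP2) and 1.96 (shScr). Every direction between the libraries rests on the label. A barcode was shared by both libraries in 47 cases. With 1 library for each condition no test was possible, the difference between birds and the effect of the hairpin cannot be told apart, and intervals (95%) cover counting error only.

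A level is the sum of the UMIs of a gene in a group of nuclei, given per 10000 UMIs of that group. Values marked (shFoxP2) come from the library labelled so, and those marked (shScr) from the other. They are not corrected for gene length, so a gene is compared with itself across cell types and not with other genes. The cell types are the 23 clusters of the authors under the names of the study, and the defining markers of glia and vessels were highest where the names place them, such as MBP in oligodendrocytes and CSF1R in microglia. CHAT was highest in cluster 23. Of the other interneuron markers, LHX6, SST and NOS1 were highest in interneurons as a cell type. NPY was not, with 5.59 (shFoxP2) and 4.96 (shScr) in red blood cells against 3.95 (shFoxP2) and 4.13 (shScr) in interneurons. PVALB had 4.44 in red blood cells and 2.30 in interneurons of the shScr library. Of the MSN markers FOXP1 was highest in MSNs, but PPP1R1B had 5.02 (shFoxP2) and 4.20 (shScr) in red blood cells against 2.30 (shFoxP2) and 2.14 (shScr) in MSNs, and TAC1 had 13.3 (shFoxP2) and 29.6 (shScr) in red blood cells against 8.54 (shFoxP2) and 19.3 (shScr) in MSNs. GAD2 and MEIS2 were not highest in MSNs either, and MEIS2 had 40.1 (shFoxP2) and 38.7 (shScr) in pallidal-like neurons against 28.3 in MSNs of each library. PENK was highest in pallidal-like neurons as a cell type, although over both libraries interneuron clusters 16 and 19 had 11.1 and 16.25, against 8.95 in the pallidal-like cluster 12. Red blood cells, which should hold little RNA of neuronal channels, served as a gauge of free RNA. They were shallow, with medians of 630 UMIs per nucleus in the library labelled shFoxP2 and 659 in the shScr library.

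The 77 genes together took 1.87% of all UMIs in the library labelled shFoxP2 and 1.66% in the shScr library. KCNIP4, a calcium-binding partner of A-type channels, alone gave 26.9% of these UMIs, and the 5 most abundant genes gave 61.2%. MSNs had the highest summed level, 211.9 UMIs per 10000 (211.4 to 212.5) in the library labelled shFoxP2 and 184.0 (183.4 to 184.5) in the shScr library. Without KCNIP4 the sums in MSNs were 142.1 in the library labelled shFoxP2 and 137.4 in the shScr library. Red blood cells still had 127.6 (shFoxP2) and 115.0 (shScr). The summed level separated cell types far less than single genes did.

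Each gene was then assigned to the cell type in which its level was highest. Of the 60 genes with at least 200 UMIs, 40 (66.7%) had the same highest cell type in both libraries, against 49.6% of all 11549 genes past that minimum. MSNs were that cell type for 10 of the 60, or 16.7%, against 2.46% of all genes. Interneurons led for 8 (13.3%, against 4.84%) and GLUT+ neurons, the glutamatergic clusters, also for 8 (against 2.69%). Microglia led for 4 genes (6.67%, against 4.28%). None of the 60 was highest in endothelial cells or in red blood cells in both libraries, against 812 and 1547 of all 11549 genes. The shares over all genes were not matched for the number of UMIs beyond the minimum of 200. As clusters were drawn by the authors on all genes, these counts are a description.

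**Figure D1:**
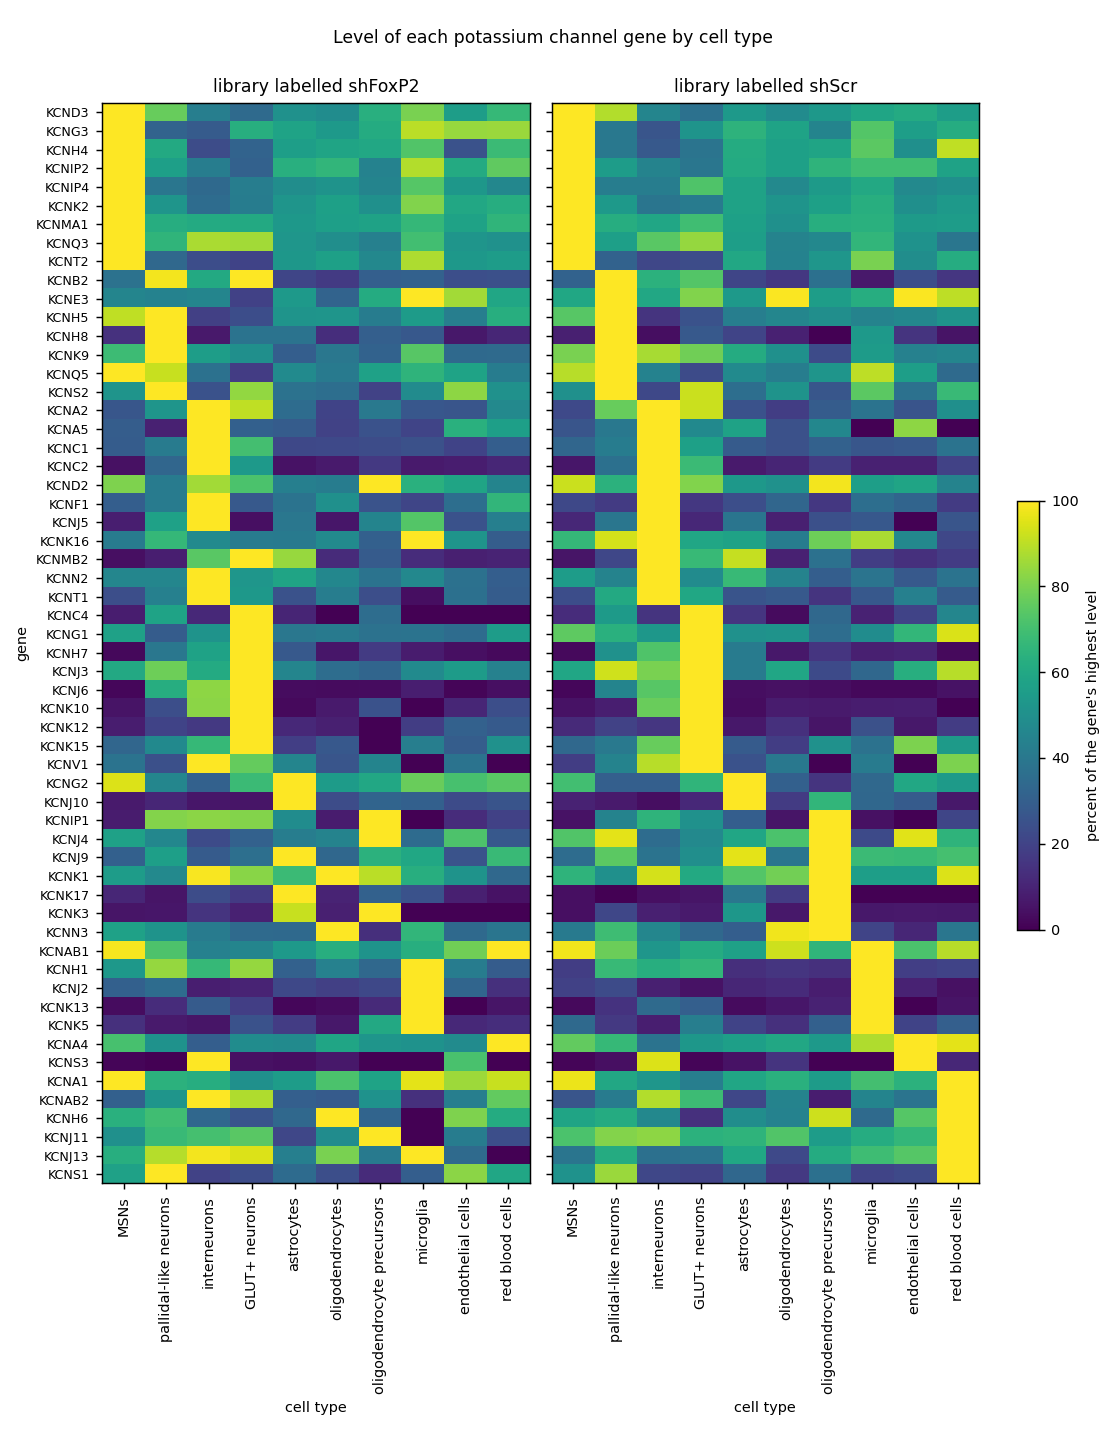
Level of 58 of the 60 genes with at least 200 UMIs in 10 cell types, as a percent of the highest level of that gene in the same library, with the library labelled shFoxP2 on the left and shScr on the right. Rows are sorted by the highest cell type of the shScr library. The 9 genes at the top are highest in MSNs in both panels, and genes such as KCNC2, KCNH7, KCNJ6 and KCNJ10 are dark outside a few columns.

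Among the voltage-gated pores, KCNC1 and KCNC2, which encode the fast-repolarising channels of rapidly firing neurons, were highest in interneurons. Both were also higher in GLUT+ neurons than in MSNs. GLUT+ neurons held 4653 (shFoxP2) and 4125 (shScr) UMIs of KCNC1 and 1496 (shFoxP2) and 2014 (shScr) of KCNC2. KCNC2 had 10.3 UMIs per 10000 (10.02 to 10.53) in interneurons of the library labelled shFoxP2 and 9.33 (9.05 to 9.62) in those of the shScr library. In MSNs KCNC2 had 0.454 in the library labelled shFoxP2 and 0.572 in the shScr library, below its levels in red blood cells of 1.10 (shFoxP2) and 1.86 (shScr). Among interneurons KCNC2 was uneven, with 16.04 (shFoxP2) and 15.14 (shScr) in cluster 14 but 0.595 (shFoxP2) and 0.826 (shScr) in cluster 23, the CHAT cluster. KCNC1 reached 40.1 (39.2 to 41.1) in cluster 13 of the library labelled shFoxP2 and 39.8 (38.5 to 41.1) in that of the shScr library. In MSNs KCNC1 had 7.08 (shFoxP2) and 7.56 (shScr), close to its red blood cell levels of 7.27 (shFoxP2) and 8.70 (shScr).

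KCNC4, another member of the same family, marked a single glutamatergic cluster. In cluster 9 it had 0.696 UMIs per 10000 (0.546 to 0.873, 74 UMIs) in the library labelled shFoxP2 and 0.533 (0.433 to 0.649, 99 UMIs) in the shScr library. In cluster 10, also GLUT+, KCNC4 had 0.0547 (shFoxP2) and 0.0456 (shScr). The other glutamatergic cluster was led by KCNH7, an ERG-type channel, with 11.9 (11.4 to 12.5) in cluster 10 of the library labelled shFoxP2 and 9.88 (9.35 to 10.4) in that of the shScr library. KCNH7 was as high in interneuron cluster 14, at 12.5 (shFoxP2) and 12.5 (shScr), and low in MSNs, at 0.220 (shFoxP2) and 0.191 (shScr). KCNH8, an ELK-type channel, led the pallidal-like neurons, where it had 0.724 (49 UMIs) in the library labelled shFoxP2 and 1.11 (99 UMIs) in the shScr library.

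The KCNQ genes encode slow channels that brake repetitive firing. KCNQ3 had 12.7 UMIs per 10000 in MSNs of the library labelled shFoxP2 and 13.6 in those of the shScr library, against 6.46 (shFoxP2) and 5.32 (shScr) in red blood cells. KCNQ5 divided the MSN clusters, with 12.3 (shFoxP2) and 11.7 (shScr) in cluster 4 and 10.9 (shFoxP2) and 9.83 (shScr) in cluster 3, but 3.39 (shFoxP2) and 2.55 (shScr) in cluster 2. Clusters 3 and 4 belong to different DRD2 classes, so the KCNQ5 pattern crossed that division. KCNB2, a delayed rectifier, was highest of all clusters in GLUT+ cluster 10, at 5.90 (shFoxP2) and 5.15 (shScr). In oligodendrocytes it had 0.775 (shFoxP2) and 0.676 (shScr).

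The Shaker-type and A-type genes completed the voltage-gated pores. KCNA1 had 8.04 (shFoxP2) and 9.41 (shScr) in MSNs and as much in red blood cells, at 7.35 (shFoxP2) and 9.71 (shScr), and the part of free RNA in its levels was not tested. KCNA2 had 1.22 (shFoxP2) and 1.16 (shScr) in interneurons and 0.325 (shFoxP2) and 0.256 (shScr) in MSNs. KCNA4, a channel linked to the delayed first spike, had 0.371 (shFoxP2) and 0.433 (shScr) in MSNs and 0.523 (shFoxP2) and 0.548 (shScr) in red blood cells. KCND2, the main A-type pore, had 9.73 in MSNs, 10.4 in interneurons and 12.04 in oligodendrocyte precursors of the library labelled shFoxP2, and 8.22, 8.95 and 8.79 in those of the shScr library. In the shScr library the interval for precursors (7.85 to 9.82) held the interneuron level of KCND2, so the order of these cell types was not resolved there. The interneuron level of KCND2 was uneven, with 37.2 (35.8 to 38.7) in cluster 18 of the library labelled shFoxP2 and 31.6 (30.1 to 33.2) in that of the shScr library, the highest of all clusters in both.

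The most abundant pores opened by calcium or sodium were MSN genes. KCNMA1, the large-conductance calcium-activated channel, had 22.7 UMIs per 10000 in MSNs of the library labelled shFoxP2 and 21.9 in those of the shScr library, against 14.9 (shFoxP2) and 12.1 (shScr) in red blood cells. KCNT2, a sodium-activated channel, had 21.96 (shFoxP2) and 26.97 (shScr) in MSNs and 5.15 (shFoxP2) and 5.74 (shScr) in interneurons. KCNT1, its relative, was instead a gene of the CHAT cluster. In cluster 23, KCNT1 had 9.10 (8.03 to 10.3, 260 UMIs) in the library labelled shFoxP2 and 6.66 (5.56 to 7.91, 129 UMIs) in the shScr library, and no other cluster passed 3.24. KCNN2, a small-conductance calcium-activated channel, had 3.14 (shFoxP2) and 3.02 (shScr) in interneurons and 1.45 (shFoxP2) and 1.67 (shScr) in MSNs. KCNN3 of the same family had 0.115 (shFoxP2) and 0.126 (shScr) in MSNs.

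None of the 9 inward rectifiers with at least 200 UMIs was highest in MSNs in both libraries, which is near the 2.46% of all genes. KCNJ6, a G-protein-gated channel, had 5.52 UMIs per 10000 in GLUT+ neurons of the library labelled shFoxP2 and 7.76 in those of the shScr library, against 0.104 (shFoxP2) and 0.122 (shScr) in MSNs and 0.235 (shFoxP2) and 0.365 (shScr) in red blood cells. In GLUT+ cluster 9 alone KCNJ6 had 10.5 (shFoxP2) and 10.2 (shScr). KCNJ6 was higher still in the CHAT cluster, at 12.2 (10.9 to 13.5, shFoxP2) and 12.2 (10.7 to 13.8, shScr). In interneuron cluster 13 KCNJ6 had only 0.256 (shFoxP2) and 0.351 (shScr). Cluster 13 was led by KCNJ5 of the same subfamily, at 0.630 (101 UMIs) in the library labelled shFoxP2 and 0.406 (37 UMIs) in the shScr library. KCNJ3, which forms channels with KCNJ6, was more even, with 0.417 (shFoxP2) and 0.375 (shScr) in GLUT+ neurons and 0.253 (shFoxP2) and 0.223 (shScr) in MSNs. KCNJ9 was highest in astrocytes of the library labelled shFoxP2, at 0.889, and had 0.619 in those of the shScr library.

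KCNJ2 and KCNJ4 are the strong rectifiers known from mammalian MSNs. KCNJ2 had 1.13 UMIs per 10000 (0.658 to 1.81, 17 UMIs) in microglia of the library labelled shFoxP2 and 1.38 (1.00 to 1.86, 44 UMIs) in those of the shScr library, against 0.344 (shFoxP2) and 0.270 (shScr) in MSNs. KCNJ4 had 0.109 (shFoxP2) and 0.103 (shScr) in MSNs, and among the clusters it was highest in MSN cluster 4, at 0.204 (0.158 to 0.259, 68 UMIs) in the library labelled shFoxP2 and 0.166 (0.115 to 0.232, 34 UMIs) in the shScr library. Oligodendrocyte precursors had 0.191 (0.0767 to 0.393) from 7 UMIs (shFoxP2) and 0.1405 (0.0456 to 0.328) from 5 UMIs (shScr), so the order of these groups for KCNJ4 was not resolved. KCNJ8, the vascular KATP pore, had 0.183 (0.0790 to 0.361, 8 UMIs) in endothelial cells of the library labelled shFoxP2 and 0.537 (0.307 to 0.873, 16 UMIs) in those of the shScr library, and was below the 200 UMIs of the other counts. KCNJ16, a partner of KCNJ10 in mammalian glia, also stayed below, with 45 UMIs (shFoxP2) and 39 UMIs (shScr) over all nuclei and 0.00863 (shFoxP2) and 0.00638 (shScr) in astrocytes.

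Astrocytes had the highest level of KCNJ10 and of KCNG2, a silent subunit, in both libraries. KCNG2 had 0.774 UMIs per 10000 (0.684 to 0.872) in astrocytes of the library labelled shFoxP2 and 0.559 (0.479 to 0.648) in those of the shScr library, against 0.733 (shFoxP2) and 0.390 (shScr) in MSNs. In the library labelled shFoxP2 the astrocyte interval held the MSN level of KCNG2, so their order was not resolved there. Of single clusters in that library, MSN cluster 1 had the most KCNG2, at 0.874. In cluster 6 KCNJ10 had 2.45 UMIs per 10000 (2.19 to 2.74, 308 UMIs) in the library labelled shFoxP2 and 0.847 (0.670 to 1.06, 78 UMIs) in the shScr library. In cluster 7, the deeper astrocyte cluster, KCNJ10 had 0.982 (shFoxP2) and 0.312 (shScr). The ratio of its level in cluster 6 to that in all other nuclei was 14.4 (shFoxP2) and 13.4 (shScr). That ratio was 16.5 (52 UMIs, shFoxP2) and 11.01 (40 UMIs, shScr) for KCNK3, an acid-sensitive leak channel. As a cell type, however, oligodendrocyte precursors had the highest KCNK3 level in both libraries, on few UMIs. In the shScr library they had 0.478, against 0.4345 in cluster 6.

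Leak channels ranged from abundant to rare. KCNK2, a mechanically and lipid-gated channel, had 16.2 UMIs per 10000 in MSNs of the library labelled shFoxP2 and 10.9 in those of the shScr library, against 10.1 (shFoxP2) and 5.87 (shScr) in red blood cells. Of single clusters, the CHAT cluster 23 had the most KCNK2, at 28.7 (26.8 to 30.7) in the library labelled shFoxP2 and 24.98 (22.8 to 27.3) in the shScr library. KCNK13 led the microglia, at 0.930 (0.508 to 1.56, 14 UMIs) in the library labelled shFoxP2 and 1.16 (0.819 to 1.60, 37 UMIs) in the shScr library, and it also led interneuron clusters 14 and 16. KCNK12, closely related to KCNK13, was highest in GLUT+ neurons, at 0.369 (shFoxP2) and 0.511 (shScr).

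Modulatory and accessory subunits led several interneuron clusters. KCNS3, a silent partner of KCNB pores, had 0.930 UMIs per 10000 (0.676 to 1.25, 44 UMIs) in cluster 19 of the library labelled shFoxP2 and 1.02 (0.746 to 1.36, 46 UMIs) in that of the shScr library, against 0.0161 (shFoxP2) and 0.0248 (shScr) in all other nuclei. KCNMB2, a beta subunit of the KCNMA1 channel, had 3.76 (shFoxP2) and 2.97 (shScr) in cluster 18. KCNIP1 had 1.34 (shFoxP2) and 1.12 (shScr) in cluster 17, and KCNF1 led cluster 21 with 0.511 (shFoxP2) and 0.689 (shScr), although it had 0.947 (shFoxP2) and 1.99 (shScr) in cluster 17. KCNS1 led cluster 1 and KCNK1 the oligodendrocyte precursors by ratios of at most 1.53 in either library, and KCNA1 led red blood cells by at most 1.22. KCNT1 had the largest ratio in endothelial cells, but at 0.985 (shFoxP2) and 1.19 (shScr). It was thus lower there than in other nuclei of the library labelled shFoxP2. The most abundant genes of the remaining modulatory and accessory stems, KCNG3, KCNAB1, KCNE3 and KCNV1, had 1.11, 1.68, 0.0606 and 0.0457 in MSNs of the library labelled shFoxP2 and 1.37, 1.60, 0.0602 and 0.0139 in those of the shScr library. KCNIP2, the A-type partner known from striatum, had 2.70 (shFoxP2) and 2.80 (shScr) in MSNs.

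**Figure D2:**
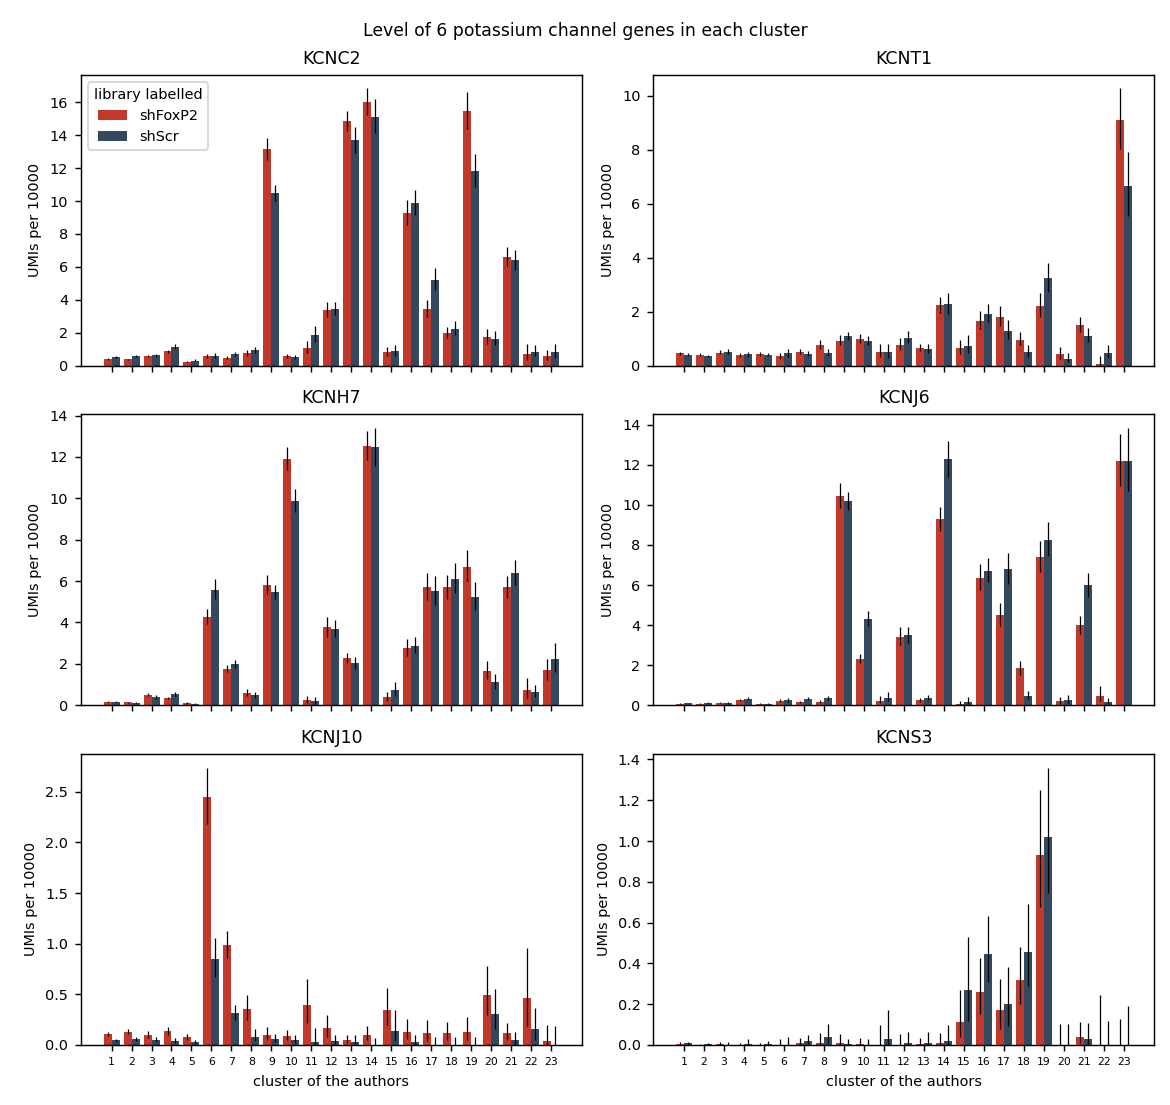
Level (UMIs per 10000) of 6 genes in the 23 clusters, with the library labelled shFoxP2 on the left of each pair and shScr on the right. Error bars are exact Poisson 95% intervals. KCNT1 stands out in cluster 23, KCNS3 in cluster 19 and KCNJ10 in clusters 6 and 7, whereas KCNC2, KCNH7 and KCNJ6 are spread over interneuron and GLUT+ clusters and are near 0 in the MSN clusters 1 to 5.

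MSNs were next divided into direct-like and indirect-like clusters, named for the striatal pathways that express different dopamine receptors. Clusters 2 and 4, whose DRD2 level was under a set fraction of the highest, were direct-like, and clusters 1, 3 and 5 indirect-like. DRD1 separated the classes less than DRD2, with 1.14 in direct-like and 0.874 in indirect-like MSNs (shFoxP2) and 1.56 and 1.365 (shScr). DRD5 had 1.28 and 1.165 (shFoxP2) and 1.66 and 1.68 (shScr). FOXP2 had 11.01 and 2.16 (shFoxP2) and 8.97 and 1.705 (shScr). Of the 43 genes with at least 200 UMIs in each library, 2 were higher in direct-like MSNs by at least 0.5 on the log2 scale in both libraries and 2 were lower. Each count is 4.65% of the 43, against 1.61% higher and 1.56% lower over all 8255 genes. The median log2 ratio of the 43 was -0.01 in the library labelled shFoxP2 and 0.00 in the shScr library, and 37 of the 43 had the same sign in both (86.0%, against 68.5% of all genes).

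The genes that were lower in direct-like MSNs encode voltage-gated channels of the EAG family. KCNH1 had 0.536 UMIs per 10000 in direct-like and 1.01 in indirect-like MSNs of the library labelled shFoxP2, and 0.181 and 0.433 in those of the shScr library. Its log2 ratios were -0.92 (-1.05 to -0.78) in the library labelled shFoxP2 and -1.26 (-1.50 to -1.02) in the shScr library. In the shScr library KCNH1 was low in direct-like cluster 2 only, at 0.123. Direct-like cluster 4 had 0.424 there, above indirect-like clusters 3 (0.384) and 5 (0.387). In the library labelled shFoxP2 clusters 2 and 4 had 0.536 and 0.537, below each indirect-like cluster. KCNH8 had 0.0836 in direct-like and 0.119 in indirect-like MSNs of the library labelled shFoxP2, and 0.0643 and 0.124 in those of the shScr library. Its log2 ratios were -0.51 (-0.88 to -0.15) in the library labelled shFoxP2 and -0.95 (-1.37 to -0.54) in the shScr library. KCNH8 lay close to the limit, and without the nuclei of shared barcodes, without the deepest 8% or as a mean over nuclei KCNH1 alone was counted. KCNH8 was also uneven within each class, with 0.320 (shFoxP2) and 0.281 (shScr) in cluster 3 but 0.0638 (shFoxP2) and 0.0839 (shScr) in cluster 1.

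The genes that were higher in direct-like MSNs were KCNK5 and KCNJ6. KCNK5, an acid-sensitive leak channel, had 0.175 UMIs per 10000 in direct-like and 0.115 in indirect-like MSNs of the library labelled shFoxP2, and 0.503 and 0.230 in those of the shScr library. Its log2 ratios were 0.61 (0.32 to 0.91) in the library labelled shFoxP2 and 1.13 (0.93 to 1.33) in the shScr library. In the library labelled shFoxP2 direct-like cluster 2 had 0.139 of KCNK5, below indirect-like cluster 3 at 0.177, and cluster 4 had 0.264. In the shScr library clusters 2 and 4 had 0.509 and 0.478, above each indirect-like cluster. Microglia, not MSNs, had the highest KCNK5 level of the cell types, at 0.996 (shFoxP2) and 1.006 (shScr), on few UMIs. KCNJ6 had 0.136 in direct-like and 0.0822 in indirect-like MSNs of the library labelled shFoxP2, and 0.152 and 0.100 in those of the shScr library, with log2 ratios of 0.73 (0.38 to 1.07) in the library labelled shFoxP2 and 0.60 (0.27 to 0.94) in the shScr library. These levels of KCNJ6 lay below those of red blood cells. KCNJ6 was uneven within the direct-like class, with 0.270 (shFoxP2) and 0.322 (shScr) in cluster 4. The larger direct-like cluster 2 had 0.0810 (shFoxP2) and 0.111 (shScr), against 0.0673 (shFoxP2) and 0.107 (shScr) in indirect-like cluster 1. With only the largest cluster of each class, neither KCNK5 nor KCNJ6 had 200 UMIs in each library and no gene was counted as higher. Just outside the limit stood KCNG1, with 0.55 in the library labelled shFoxP2 and 0.46 in the shScr library.

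**Figure D3:**
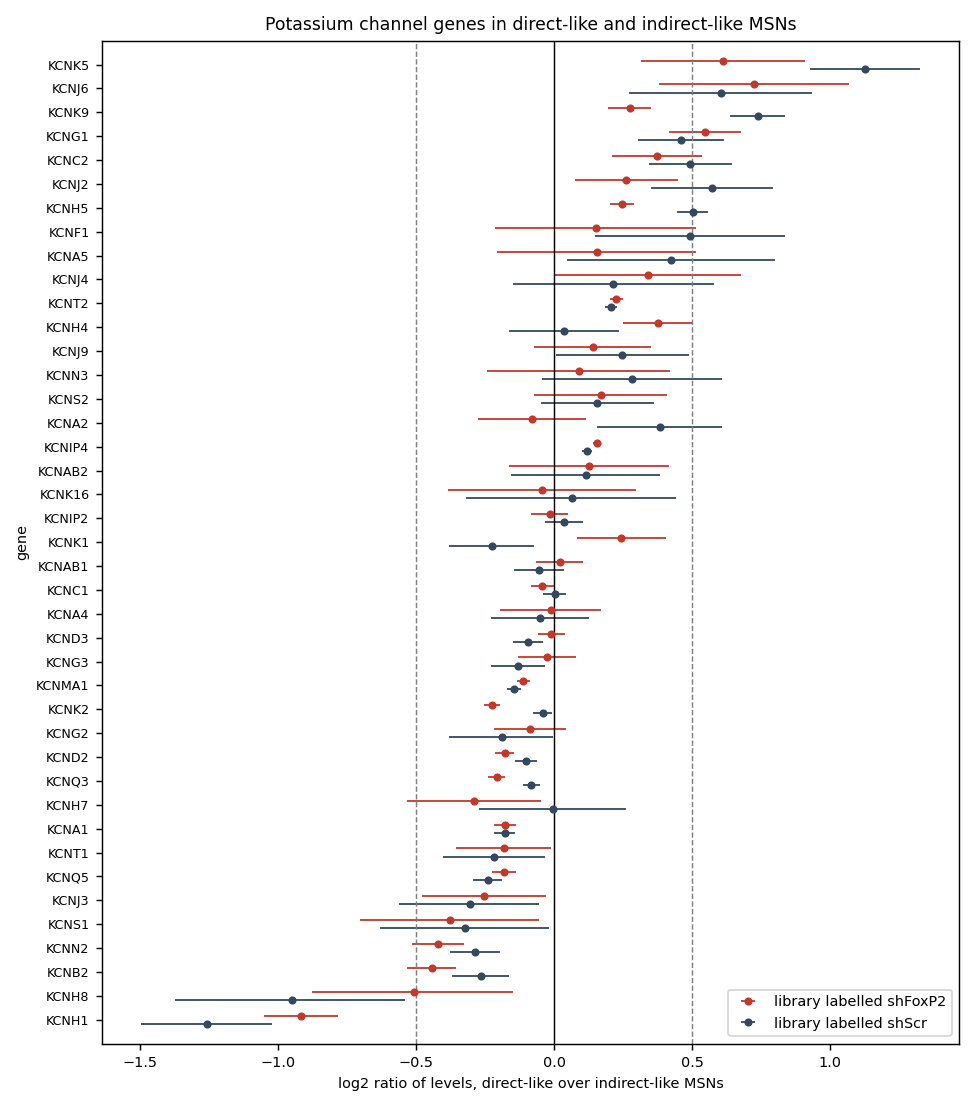
Log2 ratio of levels, direct-like over indirect-like MSNs, for 41 of the 43 genes in the library labelled shFoxP2 (red) and shScr (dark). Bars are exact binomial 95% intervals and dashed lines stand at 0.5 and -0.5. KCNH1 lies past the lower line in both libraries and KCNK5 past the upper one, and most genes lie between the lines.

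Levels in the library labelled shFoxP2 were then compared with those in the shScr library over all MSNs, with or without the virus. The study itself compared its groups in FoxP2+ cells. Of the 52 genes with at least 200 UMIs, 8 were higher in the library labelled shFoxP2 by at least 0.5 on the log2 scale and 4 were lower. These were 15.4% and 7.69% of the 52, against 9.11% higher and 9.1% lower over all 10125 genes. The median log2 ratio was 0.06 over the 52 genes and 0.01 over all genes.

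Voltage-gated pores of the KCNH family were 3 of the 8. KCNH1 had 0.814 UMIs per 10000 in the library labelled shFoxP2 and 0.328 in the shScr library, a log2 ratio of 1.31 (1.20 to 1.43). KCNH4, an ELK-type channel, had 0.728 (shFoxP2) and 0.336 (shScr), log2 ratio 1.11 [1.00 to 1.23], and KCNH5, an EAG-type channel, had 6.33 (shFoxP2) and 4.20 (shScr), log2 ratio 0.59 [0.56 to 0.63]. The log2 ratio of KCNH1 was above 0 in all 5 MSN clusters, between 0.34 (-0.04 to 0.73) in cluster 4 and 2.12 (1.81 to 2.44) in cluster 2, and the interval of cluster 4 held 0. As KCNH1 was picked on the sum of these clusters, their shared sign is no separate evidence. Red blood cells had KCNH1 levels of 0.444 (17 UMIs, shFoxP2) and 0.365 (12 UMIs, shScr), so in the shScr library the level in MSNs lay under that of red blood cells. Microglia had the highest KCNH1 level of the cell types, at 1.53 (23 UMIs, shFoxP2) and 1.82 (58 UMIs, shScr). KCNH4 had 0.497 (shFoxP2) and 0.304 (shScr) in red blood cells, and KCNH5 had 4.39 (shFoxP2) and 2.92 (shScr). The family did not move as a whole, since KCNH6, KCNH7 and KCNH8 had log2 ratios of 0.02, 0.20 and 0.07.

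The other higher genes came from different groups. KCNJ10 had 0.111 UMIs per 10000 in MSNs of the library labelled shFoxP2 and 0.0456 in those of the shScr library, log2 ratio 1.29 [0.98 to 1.61], and in astrocytes it had 1.51 (shFoxP2) and 0.469 (shScr), log2 ratio 1.69 [1.42 to 1.96]. Red blood cells had 0.392 (shFoxP2) and 0.0304 (shScr), so the MSN level lay under that of red blood cells in the library labelled shFoxP2. In the shScr library the red blood cell level rests on too few UMIs for the order to be resolved. KCNG2 had 0.733 (shFoxP2) and 0.390 (shScr), log2 ratio 0.91 [0.80 to 1.02], and KCNK9, an acid-sensitive leak channel, 1.96 (shFoxP2) and 1.28 (shScr), log2 ratio 0.61 [0.55 to 0.68]. In red blood cells KCNG2 had 0.575 (shFoxP2) and 0.304 (shScr), and KCNK9 0.993 (shFoxP2) and 0.730 (shScr). KCNK2 had a log2 ratio of 0.57 (0.55 to 0.60).

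KCNIP4 had 69.8 UMIs per 10000 in MSNs of the library labelled shFoxP2 and 46.6 in those of the shScr library, a log2 ratio of 0.58 (0.57 to 0.59). With the cluster shares held fixed it was 0.497, just short of the limit. Red blood cells had 32.4 (shFoxP2) and 23.2 (shScr). Levels of KCNIP4 and KCNK2 were also higher in oligodendrocytes, microglia and endothelial cells, with log2 ratios of 0.71, 0.87 and 0.75 for KCNIP4 and 0.71, 0.94 and 0.84 for KCNK2. How far free RNA of MSNs takes part in this was not tested.

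The 4 lower genes were 2 leak channels, a KATP pore and a silent subunit. KCNK5 had 0.140 UMIs per 10000 (385 UMIs) in the library labelled shFoxP2 and 0.345 (870 UMIs) in the shScr library, a log2 ratio of -1.30 (-1.48 to -1.13). KCNK12 had 0.0290 (shFoxP2) and 0.0618 (shScr), log2 ratio -1.09 [-1.50 to -0.69], from 80 UMIs (shFoxP2) and 156 UMIs (shScr). KCNJ11, which forms KATP channels, had 0.0548 (shFoxP2) and 0.109 (shScr), log2 ratio -0.99 [-1.29 to -0.70], and KCNS2 had 0.213 (shFoxP2) and 0.317 (shScr), log2 ratio -0.57 [-0.73 to -0.42]. The values of all 4 were below 0 in each of the 5 MSN clusters, but the genes were picked on the sum of these clusters. Of all genes picked as lower in this way, 100% were below 0 in direct-like and in indirect-like MSNs where they had 200 UMIs. Many cluster values rest on few UMIs. The intervals held 0 for KCNS2 in clusters 3, 4 and 5, for KCNJ11 in clusters 3 and 4 and for KCNK12 in cluster 4. In red blood cells, on at most 14 UMIs each, KCNK5 had 0.131 (shFoxP2) and 0.304 (shScr), KCNK12 0.105 (shFoxP2) and 0.0913 (shScr), KCNJ11 0.0261 (shFoxP2) and 0.152 (shScr) and KCNS2 0.209 (shFoxP2) and 0.426 (shScr).

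Outside MSNs the same genes mostly kept their direction where they had 200 UMIs. In astrocytes 7 of the 8 higher genes were above 0 and 4 were past 0.5, with KCNK9 the exception. Of all 345 genes that were higher in MSNs and had 200 UMIs in astrocytes, 93.3% were above 0 and 40.9% past 0.5. In interneurons 5 of 6 were above 0, with KCNH1 the exception at 1.02 (shFoxP2) and 1.14 (shScr) UMIs per 10000, and in GLUT+ neurons 5 of 6, with KCNIP4 the exception at 29.7 (shFoxP2) and 33.8 (shScr). The shares over all such genes were 85.7% in interneurons and 79.5% in GLUT+ neurons. Of the lower genes, 3 had enough UMIs in GLUT+ neurons and all 3 were below 0, against 82.4% of all genes that were lower in MSNs. Genes that were within 0.5 in MSNs but past it elsewhere included KCNMB2 in GLUT+ neurons, at 2.09 (shFoxP2) and 0.813 (shScr), log2 ratio 1.36 [1.14 to 1.58], and KCNF1 in interneurons, at 0.318 (shFoxP2) and 0.522 (shScr), log2 ratio -0.71 [-0.998 to -0.431]. These genes were named after their values were seen. GLUT+ neurons pool clusters 9 and 10, with 247 and 374 nuclei (shFoxP2) and 477 and 333 nuclei (shScr). In cluster 10 alone KCNMB2 had 3.27 (shFoxP2) and 1.60 (shScr). Cluster shares were held fixed for MSNs only, so the part of cluster mix in ratios of other pooled cell types was not tested.

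**Figure D4:**
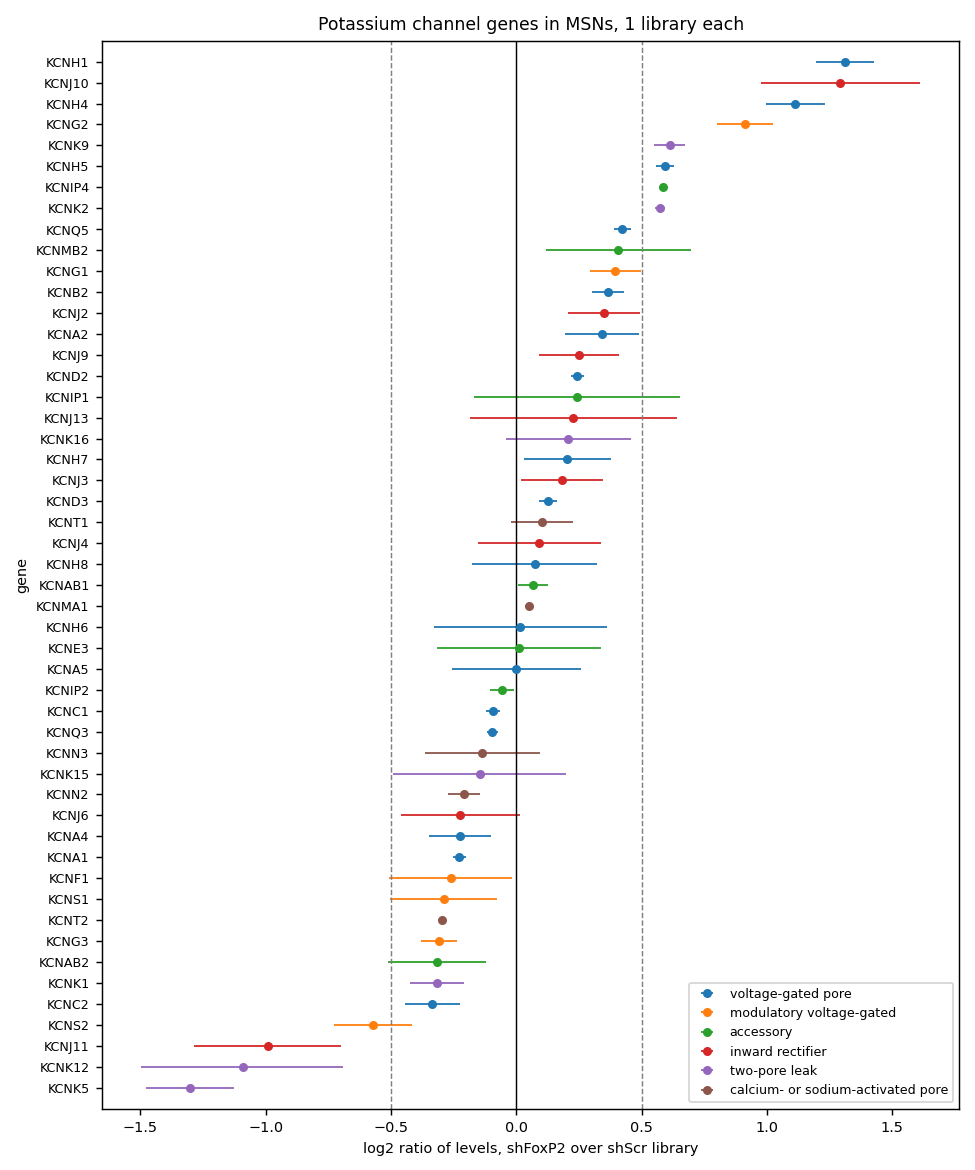
Log2 ratio of levels in MSNs, the library labelled shFoxP2 over shScr, for 50 of the 52 potassium channel genes, coloured by group. Bars are exact binomial 95% intervals and dashed lines stand at 0.5 and -0.5. KCNH1, KCNJ10 and KCNH4 lie past 1 and KCNK5 and KCNK12 past -1, and 38 genes lie between the dashed lines.

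Partners of the channels were read from a list of 14 genes, of which 10 had 200 UMIs in MSNs. Of these 1 was higher and 1 lower by 0.5, a share near the 9.11% and 9.1% of all genes. DPP10, a partner of KCND pores, had 7.80 UMIs per 10000 in MSNs of the library labelled shFoxP2 and 3.30 in those of the shScr library, a log2 ratio of 1.24 (1.20 to 1.28). DPP6, its relative, had 18.7 (shFoxP2) and 17.8 (shScr), log2 ratio 0.07, and the pores KCND2 and KCND3 had log2 ratios of 0.24 and 0.13. AMIGO1, a partner of KCNB pores, had 0.131 (shFoxP2) and 0.2998 (shScr), log2 ratio -1.20 [-1.38 to -1.02], while KCNB2 had a log2 ratio of 0.37. These directions were not particular to MSNs, since DPP10 was higher and AMIGO1 lower in every other cell type too. AMIGO1 rested on few UMIs in the rarer cell types. Red blood cells had DPP10 levels of 3.63 (shFoxP2) and 2.16 (shScr). Their AMIGO1 levels were 0.261 (10 UMIs, shFoxP2) and 0.639 (21 UMIs, shScr). Between direct-like and indirect-like MSNs 9 partners had enough UMIs, and none was past 0.5 in both libraries, where 1.61% of all genes were higher and 1.56% lower, with CNTNAP2 just short of it at 0.496 (shFoxP2) and 0.495 (shScr).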

How the data were processed

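Nuclei of Area X were sequenced as 1 library for each condition with a 3' kit. The authors aligned reads with Cell Ranger to the zebra finch genome bTaeGut1_v1.p, counting exons and introns, filtered nuclei by UMIs and mitochondrial share, and integrated and clustered them with Seurat. The deposited tables hold raw UMI counts for each gene and nucleus, with no normalization. The nuclei used had 500 to 9997 UMIs and at most 4.99% mitochondrial UMIs. Nuclei of the shScr library were identical in both deposited tables, which fixed the mapping of the libraries. All columns used belong to a matched sample.

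UMIs were summed over nuclei with pandas 2.3.3, scipy 1.17.1 and numpy 2.4.6 under Python 3.11.15, and figures drawn with matplotlib 3.10.9. Levels carry exact Poisson intervals, and log2 ratios exact binomial ones. Genes needed 200 UMIs, a sum of 0 was set to 3, and log2 ratios past 0.5 were counted. Direct-like clusters had a DRD2 level under 1/3 of the highest of an MSN cluster. No doublet caller was run, and the 8% of deepest nuclei were left out as an alternative. Other alternatives were minimums of 50 and 1000 UMIs, centring on the median, thinning to 1000 UMIs (which left out 531 nuclei of the library labelled shFoxP2 and 626 of the shScr library), means over nuclei, fixed cluster shares, counting past 1, other MSN clusters, red blood cells left out, and, chosen after seeing the data, shared barcodes left out. Ratios and intervals were tested on simulated data.

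Genes were named if past 0.5 in a comparison of MSNs, if they led a cluster by ratio (at least 50 UMIs there), if they had the most UMIs of their symbol stem, or from a list of striatal and glial channels. The genes and lists were chosen with earlier results of these data known. Some genes that these rules name are counted but not reported here and are drawn in no figure. RefSeq (bTaeGut7.mat) was used for gene order only.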

Additional observations from a re-analysis of the deposited data

Results flagged for a closer look

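Opposite directions between cell types, with both intervals on one side of 0, were seen for 8 of the 41 potassium channel genes that had 200 UMIs in more than one cell type (19.5%, against 10.2% of 6969 genes). For 2 of them, KCNIP4 and KCNAB1, a value was also past 0.5 (4.88%, against 3.73%). These shares were not matched for UMIs, on which such intervals depend. With 200 UMIs there were 10 potassium channel genes in microglia and 52 in MSNs, against 365 and 10125 of all genes. The log2 ratio of the library labelled shFoxP2 over shScr for KCNIP4 was 0.87 (0.73 to 1.01) in microglia, from 776 UMIs (shFoxP2) and 894 UMIs (shScr), and -0.19 in GLUT+ neurons. KCNAB1, a beta subunit of KCNA pores, had 0.066 (0.0051 to 0.13) in MSNs and -0.51 (-0.89 to -0.14) in oligodendrocytes, from 100 UMIs (shFoxP2) and 150 UMIs (shScr). The GLUT+ value pools clusters 9 and 10, whose shares of nuclei differed between the libraries. The differences between cell types were not tested, as each condition had 1 library.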

How the results depend on the processing

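In MSNs, the 8 genes higher in the library labelled shFoxP2 became 3 when counted past 1. The 4 lower genes became 2 with a minimum of 1000 UMIs, 2 after thinning to 1000 UMIs and 2 when counted past 1. Between direct-like and indirect-like MSNs, the 2 higher genes became 0 with the largest cluster of each class, 0 after thinning, 0 when counted past 1 and 6 with the shScr library's own clusters. The 2 lower genes became 1 after thinning, 1 without the deepest 8%, 1 as a mean over nuclei, 1 without shared barcodes and 0 when counted past 1. Thinning leaves fewer genes with enough UMIs, and the own clusters need 1 library only. The other 37 counts lay within 1.5 times those reported, the counts of the highest cell type among them. An equal count could hold other genes. With the largest cluster of each class the 2 lower genes were KCNQ5 and KCNH1, and KCNH8 was not counted. Of 113 values of single genes under the alternatives none changed sign and 10 left their counting interval. The smallest of these 10 in absolute size was for KCNH8 in direct-like over indirect-like MSNs (shFoxP2), where the mean over nuclei was -0.10. Genes that fell under the minimum in an alternative gave no value there. These were KCNK12, KCNJ11 and KCNJ10 among the library ratios after thinning, and KCNK5, KCNJ6 and KCNH8 with the largest cluster of each class. Some alternatives, such as centring, hardly move a value. No paired analysis was possible because each condition has 1 library. Depth limits the small clusters: KCNK13 in microglia rests on 14 UMIs in the library labelled shFoxP2 and 37 in the shScr library.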

Other observations

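KCNK17, a leak channel gene, had a larger log2 ratio between the libraries in MSNs (4.58, 3.43 to 6.05) than any of the 52 genes counted above but had too few UMIs in MSNs to be counted. It had 157 UMIs in MSNs of the library labelled shFoxP2 (0.0570 UMIs per 10000, 0.0484 to 0.0666) and 6 in those of the shScr library (0.00238, 0.000872 to 0.00517). In astrocytes KCNK17 had 182 UMIs (0.523, 0.450 to 0.605) in the library labelled shFoxP2 and 7 UMIs (0.0223, 0.00898 to 0.0460) in the shScr library. KCNK5, which was lower in the library labelled shFoxP2, and KCNK16, which had 0.111 UMIs per 10000 in MSNs of that library and 0.0959 in those of the shScr library, lie beside KCNK17 in the RefSeq gene order of another assembly, with uncharacterised genes between KCNK5 and KCNK17. Reads could not be assigned anew among these neighbours, so a part of counting in the difference was not tested.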
